A study of Homo sapiens with 6 samples.

Results

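The IL20 subfamily was examined in floating spheres and sphere-differentiated cells of the established ovarian cancer line SKOV3. It comprised 7 genes chosen by name, 3 for cytokines (IL19, IL20 and IL24) and 4 for receptor chains (IL20RA, IL20RB, IL22RA1 and IL10RB), among 58735 entries in the expression table. The family was picked because IL20 was among the largest falls in this same comparison, so the values of IL20 are a description and carry no test. Adjusted p-values of the other members come from the same comparison, in a fit over all genes, and are given as a description too. Floating spheres, titled stem cells in the labels, had 3 libraries and came from SKOV3 cells grown without serum in ultra-low-attachment plates, in DMEM/F12 with B27 supplement, to which the study's methods add insulin, EGF and bFGF as growth factors. Sphere-differentiated cells, titled adherent cells, also had 3 libraries and came from such spheres that were moved to DMEM with fetal bovine serum and attached to the dish. Attachment, serum and medium changed together, so their shares in any difference cannot be told apart. Both states are cultures of a single cell line, the labels name no genetic change between them, and they do not say whether replicates came from separate cultures, so the p-values measure only the spread between these libraries. Depth was similar in all 6 libraries, at 14725462 to 16376331 fragments over entries with an exon length.

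IL19, IL20 and IL24 are secreted cytokines of the IL10 family, best known from skin and from inflamed epithelium. They signal through pairs of receptor chains on epithelial cells. IL20RA with IL20RB binds all of these cytokines, and IL22RA1 with IL20RB binds IL20 and IL24, whereas IL10RB is the shared chain of the receptors for IL10, IL22 and the lambda interferons. Receptor chains carry JAK kinases, which activate STAT proteins, STAT3 foremost, and SOCS proteins switch the signal off. IL24 is also known as a tumour-suppressing cytokine, MDA-7, studied in cancer cells.

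The cytokine genes lie side by side on chromosome 1 and moved in the same direction, so the sequence before their starts is shown with that of IL22RA1, the receptor gene that moved the other way. On hg38, with the GENCODE 29 gene models, IL19 spans chr1:206798870-206842981, IL20 chr1:206865354-206869223 and IL24 chr1:206897443-206904139, all on the plus strand. IL22RA1 lies on the minus strand of the same chromosome, at chr1:24119771-24143121. RefSeq (GRCh38.p14) gave 10 windows before the starts of the 7 members, and the 3 that overlap no annotated exon are printed, 250 bases each, 5′ to 3′ up to the base before the start. They lie at chr1:206863315-206863564 for IL20, before a RefSeq start that is upstream of the GENCODE gene, at chr1:206897193-206897442 for IL24 and at chr1:24143141-24143390 for IL22RA1. Capitals mark matches, on either strand, to the letters searched: TGANTCA for AP-1, TTCNNNGAA for STAT, GGAATG for TEAD, TTGCNNAA for C/EBP and TATAAA for the TATA box.
IL20: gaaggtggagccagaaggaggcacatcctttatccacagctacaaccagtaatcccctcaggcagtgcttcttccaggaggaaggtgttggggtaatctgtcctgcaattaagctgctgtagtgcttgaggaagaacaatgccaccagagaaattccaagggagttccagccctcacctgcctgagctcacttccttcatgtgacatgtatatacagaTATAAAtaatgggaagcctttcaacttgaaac
IL24: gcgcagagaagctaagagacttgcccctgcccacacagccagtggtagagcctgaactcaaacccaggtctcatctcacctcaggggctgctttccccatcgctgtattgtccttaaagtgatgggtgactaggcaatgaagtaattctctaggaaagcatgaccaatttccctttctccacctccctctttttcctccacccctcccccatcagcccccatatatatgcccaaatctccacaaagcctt
IL22RA1: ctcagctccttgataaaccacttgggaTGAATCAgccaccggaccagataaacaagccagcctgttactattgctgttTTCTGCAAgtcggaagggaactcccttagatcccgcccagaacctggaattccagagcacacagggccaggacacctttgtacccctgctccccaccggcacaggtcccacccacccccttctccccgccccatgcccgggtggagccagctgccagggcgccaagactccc

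The IL20 window held a TATA box 32 bases before the start, letters found in 10.7% of 35116 windows of the same length. The IL24 window held none of the 5 motifs. IL22RA1 had TGAATCA, an AP-1 match, 223 bases before the start, as 6.57% of windows do for AP-1, and a C/EBP match at 172 bases, as 9.05% do. No match overlapped another. Elsewhere among the members, IL20RA also had a TATA box 32 bases before a start. AP-1 letters (TGACTCA) stood 107 bases before the first RefSeq start of IL19 and STAT letters, also found in 6.57% of windows, 217 bases before its second start. TEAD letters (11.9% of windows) occurred on the other strand 219 bases before the start of IL10RB. No motif of the 5 was shared by the windows of all the cytokine genes, which says only that these letters are not in these windows.

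IL20, a cytokine that drives growth of skin keratinocytes, was far lower in floating spheres. It stood at 0.723, 6.38 and 1.28 FPKM in floating sphere replicates 1, 2 and 3, against 31.5, 32.6 and 31.1 FPKM in sphere-differentiated replicates 1, 2 and 3. FPKM scales fragments by gene length and library size. The states did not overlap, and the differentiated libraries were within a narrow range while the spheres spread widely. Means were 2.79 ± 3.12 FPKM in floating spheres and 31.7 ± 0.775 FPKM in differentiated cells (SD, n = 3 each), a log2 fold change of -3.71 (SE 0.57) on the log2 of FPKM + 0.5, as are all fold changes given. Among 1915 protein-coding genes that were called lower without overlap, at a mean of 5 FPKM or more in the higher state, this was the fall ranked at place 8. Behind these values were 19, 163 and 34 fragments in floating spheres, against 781, 733 and 803 fragments in differentiated libraries. In such bulk libraries, fewer cells that express a gene and less RNA per cell cannot be told apart.

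IL24 was also lower in floating spheres, but unevenly. Its values were 1.24, 21.9 and 3.00 FPKM in floating spheres, against 38.1, 34.6 and 36.7 FPKM in sphere-differentiated cells. Floating sphere replicate 2 reached 60.0% of the differentiated mean, whereas replicates 1 and 3 were at 3.39% and 8.24%, and the states did not overlap. The log2 fold change was -2.84 (SE 0.82, limma with Benjamini-Hochberg adjustment over 15719 genes, adjusted p = 0.0327), and it was -3.90 without floating sphere replicate 2 (adjusted p = 0.00113). The call ended without floating sphere replicate 1 (log2 fold change -2.06, adjusted p = 0.0647) or 3 (-2.57, 0.095), without sphere-differentiated replicate 1 (-2.81, 0.0836), 2 (-2.88, 0.098) or 3 (-2.84, 0.0836), and without a filter on low values (adjusted p = 0.0931). The direction was the same with each library left out, and removing the filter cannot change it.

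IL19, the weakest of the cytokine genes, was close to the detection limit in floating spheres. Floating sphere replicates 1, 2 and 3 held 1, 5 and 1 fragments, against 28, 48 and 36 fragments in sphere-differentiated replicates 1, 2 and 3. That is 0.0231, 0.119 and 0.0227 FPKM against 0.683, 1.29 and 0.845 FPKM, with no overlap. The mean over all libraries, 0.498 FPKM, was just under the minimum of 0.5 for testing, so IL19 has no p-value in the main fit. Summed over replicates, 7 fragments from floating spheres against 112 from differentiated cells gave a ratio of 0.0582 per fragment sequenced (95% exact interval 0.0229 to 0.124), which covers counting error only and not the spread between cultures.

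The cytokine genes also differed in their balance. Per length, IL24 exceeded IL20 by 1.71, 3.43 and 2.35 times in floating sphere replicates 1, 2 and 3, against 1.21, 1.06 and 1.18 times in sphere-differentiated replicates 1, 2 and 3. IL24 made up 62.3% to 77.1% of the summed cytokine FPKM in floating spheres and 50.5% to 54.2% in sphere-differentiated cells. The sum itself was 1.98, 28.4 and 4.30 FPKM in floating spheres, against 70.2, 68.5 and 68.7 FPKM in sphere-differentiated cells.

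**Figure D1:**
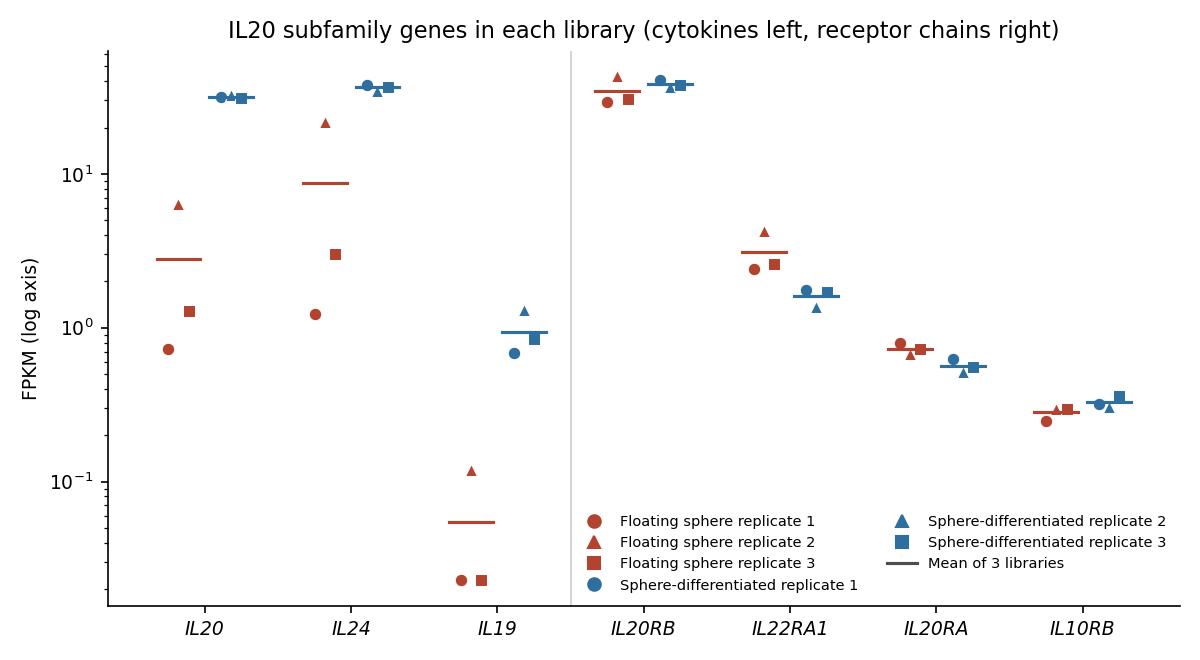
FPKM of the 7 members in each library on a log axis, with floating spheres in red left of sphere-differentiated cells in blue, symbols for replicates and a line at the mean of 3 libraries. IL20, IL24 and IL19 are lower in every floating sphere library, with replicate 2 highest among the spheres, and IL20RB overlaps between states at 29.3 to 43.3 FPKM and 36.8 to 40.8 FPKM.

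The receptor chains differed widely in level. IL20RB (chr3:136946230-137011085), the chain shared by both IL20 receptors, was the most abundant member in floating spheres and stood at 29.3, 43.3 and 30.8 FPKM there, against 40.8, 36.8 and 37.6 FPKM in sphere-differentiated cells. The states overlapped, and the log2 fold change was -0.18 (SE 0.18, adjusted p = 0.469). IL20RA (chr6:136999971-137045180), the chain that completes the receptor for all of the cytokines, was far lower, at 0.795, 0.674 and 0.722 FPKM in floating spheres against 0.627, 0.516 and 0.552 FPKM in sphere-differentiated cells. Although these values did not overlap, the difference of 0.21 (SE 0.22) had no call (adjusted p = 0.494), and it rests on 35 to 63 fragments per library. Summed over replicates, 173 fragments from floating spheres against 125 from differentiated cells gave a ratio of 1.29 (95% exact interval 1.02 to 1.64, counting error only). At such low values the 0.5 added before the log2 flattens the difference, which was 0.32 with 0.1 added, also without a call. IL20RB exceeded IL20RA per length by 36.9 to 64.2 times in floating spheres and by 65.0 to 71.3 times in sphere-differentiated cells.

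IL22RA1, the alternative partner of IL20RB and a chain of the IL22 receptor, was the member with higher values in floating spheres that had a call. It reached 2.41, 4.25 and 2.59 FPKM in floating spheres, against 1.76, 1.37 and 1.69 FPKM in sphere-differentiated cells. The states did not overlap, and replicate 2 was again the highest sphere library. The log2 fold change was 0.73 (SE 0.22, adjusted p = 0.0393). This call ended without floating sphere replicate 2 (0.51, adjusted p = 0.0573) or 3 (0.82, 0.0552), without sphere-differentiated replicate 1 (0.79, 0.0808), 2 (0.65, 0.127) or 3 (0.77, 0.102), on rescaling to TPM (adjusted p = 0.0513) and without a filter (0.101).

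IL10RB (chr21:33266358-33310187) had 0.249, 0.297 and 0.298 FPKM in floating spheres, against 0.319, 0.307 and 0.361 FPKM in sphere-differentiated cells, without overlap but too low to be tested. Its 64 fragments from floating spheres against 70 from differentiated cells gave a ratio of 0.852 (95% exact interval 0.597 to 1.21, counting error only). Of its exon length, 38.1% also belongs to AP000295.1, a gene model that spans IFNAR2 and IL10RB and received 0 to 3 fragments per library. How fragments shared by several genes were counted is not given in the sources used here, so these values cannot be read as the level of the IL10RB transcript, and the same holds for the neighbouring interferon receptor gene IFNAR2, with 83.2% of its exon length shared.

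In the fit over all genes, 3 of the 5 members tested had a call, IL20 and IL24 lower and IL22RA1 higher, where 33.6% of all tested genes had one (17.8% lower and 15.8% higher). Groups did not overlap for 4 of these 5, against 51.6% of tested genes, with IL20 and IL24 lower (27.2% of tested genes) and IL22RA1 and IL20RA higher (24.3%). Since IL20 chose the family through this contrast, nothing is read from these counts. In order of FPKM, sphere-differentiated cells had IL20RB, IL24, IL20, IL22RA1, IL19, IL20RA and IL10RB, and of these neighbours only IL20RB and IL24 overlapped. IL10RB is placed by its deposited FPKM only, here and in floating spheres, since its transcript level cannot be read. In floating spheres IL20RB stood alone at the top, IL24, IL22RA1 and IL20 overlapped each other, and IL20RA, IL10RB and IL19 followed, with the highest IL20RA value (0.795 FPKM) above the lowest IL20 value (0.723 FPKM) and the other IL20RA values below it.

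**Figure D2:**
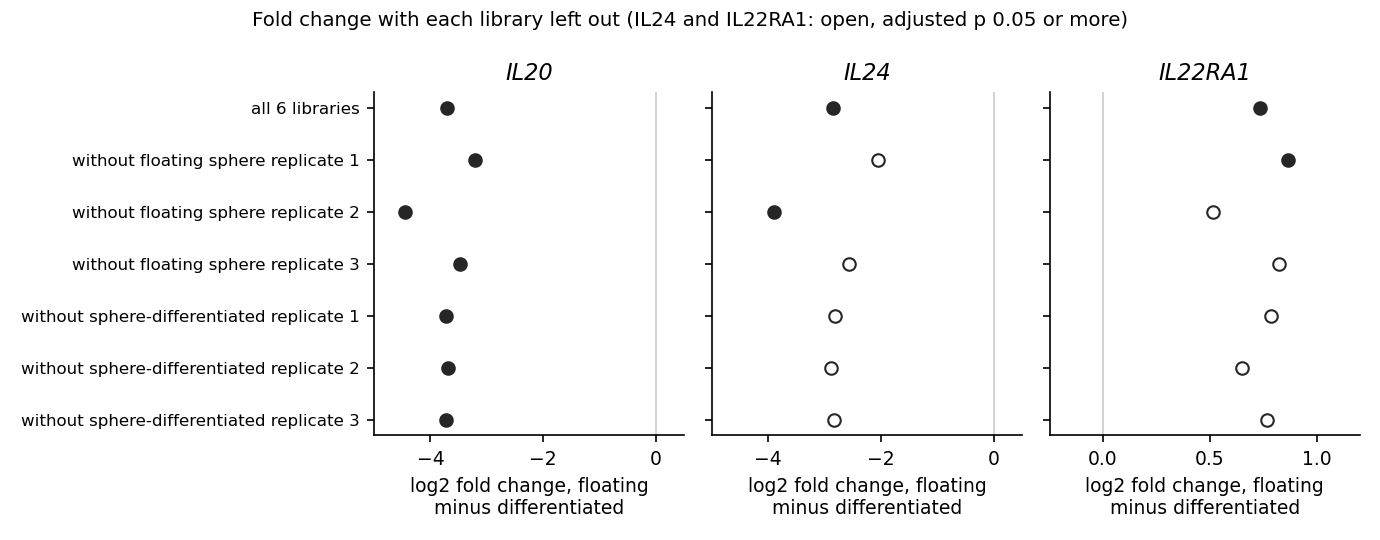
Log2 fold change (floating sphere minus sphere-differentiated, x axis) of IL20, IL24 and IL22RA1 with all 6 libraries and with each library left out (rows), where open circles for IL24 and IL22RA1 have an adjusted p of 0.05 or more and IL20 carries no test. IL24 ranges between -3.90 and -2.06 and IL22RA1 between 0.51 and 0.87, with the direction kept in every row.

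Floating sphere replicate 2 was nearer to the differentiated cells than the other spheres for IL20 and IL24. To see whether this held more widely, 992 genes were taken that were called at least 2-fold lower from the other 5 libraries alone. On the log2 scale, replicate 2 lay a median of 6.92% of the way between the other spheres and the differentiated mean for these genes (quartiles -15.0% and 34.0%). IL20 was at 49.9% of the way and IL24 at 81.5%, above 84.9% and 95.4% of these genes. IL19, with 5 fragments in replicate 2, was at 16.8%, within these quartiles. All its floating sphere values (0.0227 to 0.119 FPKM) were below the 0.5 added before the log2. That flattens its differences, so its position cannot be compared with those of IL20 and IL24. Across all tested genes, log2 values of floating spheres correlated with each other at 0.928 to 0.952, those of sphere-differentiated cells at 0.966 to 0.977.

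Markers of other cells that make or answer these cytokines were also read. Of 8 leukocyte markers, PTPRC, MS4A1 and LYZ had no fragment in any library, the summed level was 8.40 to 15.9 FPKM in floating spheres and 8.46 to 11.5 FPKM in sphere-differentiated cells, and CD14 made up most of it. Of 7 keratinocyte markers, KRT1 had no fragment in any library and KRT5, TP63, DSG3 and IVL were under 0.1 FPKM throughout. The summed level was 14.1 to 17.8 FPKM in floating spheres and 21.1 to 34.6 FPKM in sphere-differentiated cells, carried by KRT10 and KRT14. KRT14 was lower in floating spheres, at 0.366, 1.56 and 0.619 FPKM against 8.69, 6.30 and 6.77 FPKM (limma, log2 fold change -2.61, adjusted p = 0.00181). KRT10 had no call (-0.43, adjusted p = 0.175). TP63, too low to test, went the other way without overlap, at means of 0.0775 FPKM in floating spheres and 0.0428 FPKM in sphere-differentiated cells. All 6 SKOV3 markers were detected in every library. Their sum was 177 to 427 FPKM in floating spheres and 716 to 797 FPKM in sphere-differentiated cells. KRT7 was its largest part in every library, at 66.7 to 275 FPKM in floating spheres and 527 to 605 FPKM in sphere-differentiated cells. ERBB2 was low in both states, at 6.56 to 9.47 FPKM and 8.01 to 10.2 FPKM, with no call. The identity of the line was not tested by these levels. Where 17.8% of all tested genes fell, 3 of the 6 SKOV3 markers fell in floating spheres (EPCAM, KRT7 and KRT18). EPCAM, an epithelial adhesion gene, was at 0.584 to 1.05 FPKM there, against 6.19 to 7.02 FPKM. The part of other cells in the cytokine values was not tested beyond these levels.

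In the signal chain behind the receptors, 1 of 6 genes changed, where 33.6% of all tested genes did. JAK1, a kinase used by these receptors, fell in floating spheres, at 27.5, 22.2 and 31.3 FPKM against 45.1, 52.9 and 46.7 FPKM in sphere-differentiated cells (log2 fold change -0.84, SE 0.16, adjusted p = 0.00834). Every floating sphere library was below every differentiated library. STAT3, the main transcription factor of this signal, stood at 26.9, 22.2 and 30.3 FPKM in floating spheres against 21.8, 25.6 and 21.4 FPKM, with overlap and no call (0.20, SE 0.16, adjusted p = 0.367). JAK2, TYK2, STAT5A and STAT5B had no call either, at log2 fold changes of -0.02 to 0.49. The median over the 6 genes was 0.12, against 0.00 over all tested genes.

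Feedback genes and STAT3 targets went both ways, with 2 of 12 higher and 4 lower, at a median of -0.20. Of all tested genes, 15.8% were higher and 17.8% lower. SOCS2, an inhibitor that acts mainly on growth hormone signals, fell to 2.26 ± 0.451 FPKM in floating spheres, against 7.64 ± 1.25 FPKM in sphere-differentiated cells (SD, n = 3 each; log2 fold change -1.56, limma adjusted p = 0.0015). SOCS1, a direct JAK inhibitor (-0.77), the phosphatase gene PTPN11 (-1.05) and BCL3, a regulator of NF-kB (-0.75), also fell. The AP-1 gene JUNB (1.03) and PIAS3, an inhibitor of STAT3 (0.44), rose. SOCS3, the classical brake induced by STAT3, had 13.2, 24.7 and 14.0 FPKM in floating spheres against 13.1, 8.08 and 12.1 FPKM in sphere-differentiated cells and no call (adjusted p = 0.141). PIM1, a kinase gene induced by STAT3, had none either, at 6.29, 27.5 and 15.9 FPKM against 26.3, 25.4 and 24.1 FPKM. In both genes the highest floating sphere library was replicate 2. For other genes of these lists, JAK1, STAT3, PTPN11 and CEBPD among them, replicate 2 was the lowest floating sphere library. Counted together, these 18 genes gave 7 calls in the main fit, where 33.6% of all tested genes had one. They gave 4 without a filter on low values, 4 without floating sphere replicate 3 or sphere-differentiated replicate 1, and 3 without sphere-differentiated replicate 2 or 3. The calls of SOCS1, BCL3, JUNB and PIAS3 were each lost in some of these fits, those of JAK1, SOCS2 and PTPN11 in none.

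**Figure D3:**
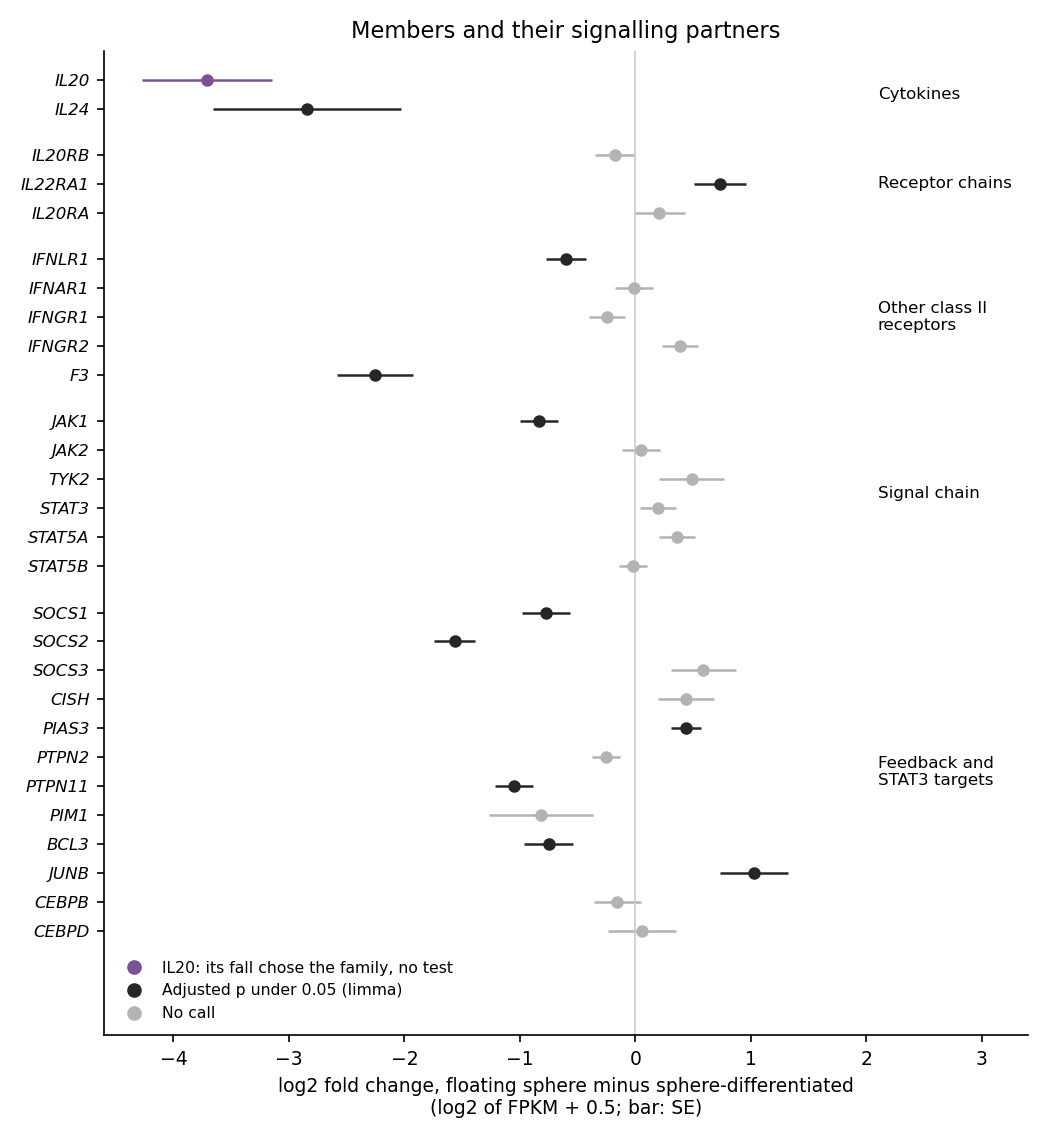
Log2 fold change (floating sphere minus sphere-differentiated, bar for SE) of the 5 members tested, other class II cytokine receptors, the signal chain and feedback genes and STAT3 targets, in black with an adjusted p under 0.05, grey without and purple for IL20, which carries no test. IL20 and IL24 lie at -3.71 and -2.84, while STAT3 lies at 0.20 and JAK1 at -0.84.

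The wider IL10 family was little expressed. IL10, IL22 and IL26 had no fragment in any library. IFNL1, a lambda interferon, rose in floating spheres, at 5.99, 4.51 and 1.10 FPKM against 0.516, 0.325 and 0.496 FPKM in sphere-differentiated cells (log2 fold change 1.99, SE 0.49, adjusted p = 0.0192). Its call ended without floating sphere replicate 2, without any 1 of the sphere-differentiated replicates and without a filter. The lambda interferon genes IFNL2 and IFNL3, which are near-identical so that their fragments may be split, had 0 to 12 fragments per library. IFNLR1, which pairs with IL10RB to bind lambda interferons, fell to 3.44, 4.86 and 5.13 FPKM in floating spheres, against 7.81, 6.40 and 6.73 FPKM (log2 fold change -0.60, SE 0.18, adjusted p = 0.0351), a call that ended without floating sphere replicate 1, without any 1 of the sphere-differentiated replicates and without a filter. F3, tissue factor, which starts coagulation and shares the fold of these receptors, fell to 14.0, 27.4 and 9.76 FPKM, against 74.1, 79.0 and 75.9 FPKM (-2.25, SE 0.33, adjusted p = 0.00326). The interferon receptor genes IFNAR1, IFNGR1 and IFNGR2 had no call, at -0.01, -0.25 and 0.39.

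Genes that IL20 cytokines induce in keratinocytes were taken as a list of 20, of which 10 were high enough to be tested. Of these, 4 rose and 2 fell, at a median of 1.08, where 15.8% of all tested genes rose and 17.8% fell. The alarmin genes S100A8 and S100A9 rose, S100A9 to 21.9, 219 and 115.8 FPKM in floating spheres against 4.16, 4.11 and 5.37 FPKM in sphere-differentiated cells (log2 fold change 4.05). PI3, the elastase inhibitor elafin, rose to 601, 849 and 1222 FPKM against 113, 103 and 113 FPKM (2.96), and the keratin gene KRT16 rose (1.24). KRT17, a keratin of activated epidermis (-2.13), and LCN2, an iron-binding antimicrobial protein gene (-2.22), fell. KRT16 and KRT17 are close copies, so fragments may be split between them. The largest adjusted p among these 6 was 0.0107 (limma), and the calls of S100A8 and KRT16 ended without sphere-differentiated replicate 2. Floating sphere replicate 2 was also the highest library for S100A8, at 1.84, 18.7 and 10.0 FPKM in floating spheres against 0.439, 0.208 and 0.302 FPKM in sphere-differentiated cells. For LCN2 it was the lowest, at 0.691 FPKM against 3.06 and 2.65 FPKM in floating sphere replicates 1 and 3. SERPINB3 and SERPINB4, near-identical genes whose fragments may be split, had no call, with 28.2 and 48.2 FPKM in floating sphere replicate 2. Of the listed genes too low to test, 7 had no fragment in any library. KRT6A, also too low, was lower in floating spheres without overlap, at 2, 2 and 1 fragments against 34, 33 and 28 fragments in sphere-differentiated cells. MMP3 and MMP10, too low as well, overlapped between states.

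**Figure D4:**
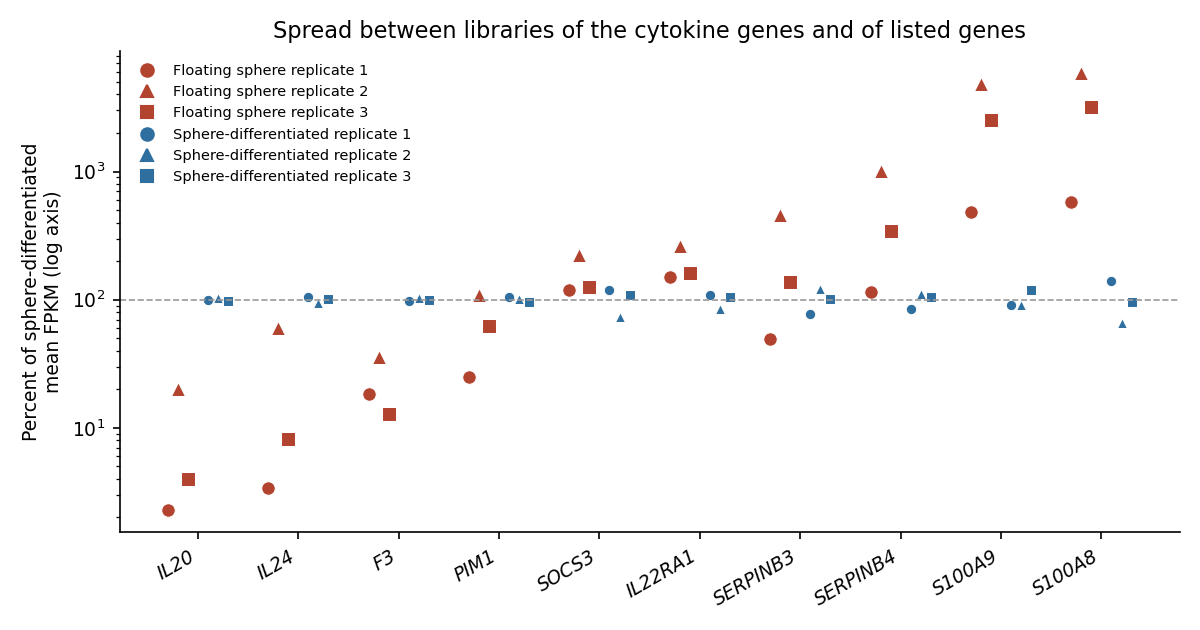
FPKM of each library as a percent of the sphere-differentiated mean (log axis, dashed line at 100), floating spheres in red and sphere-differentiated cells in blue, symbols for replicates. The genes were chosen after their values were seen, and floating sphere replicate 2 is the highest sphere library for all 10 of them, at 20.1% for IL20, 60.0% for IL24 and 5913% for S100A8.

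Genes tied to IL24 in cancer cells were lower in 5 of 10 tested and higher in 1, at a median of -0.65. Over all tested genes, 17.8% were lower and 15.8% higher. GADD45A, a growth arrest gene, fell to 12.2 ± 4.72 FPKM in floating spheres, against 48.7 ± 11.7 FPKM in sphere-differentiated cells (SD, n = 3 each; log2 fold change -1.99, limma adjusted p = 0.00307), and GADD45B fell too (-1.54). The stress gene DDIT3 (-1.04), the translation factor gene EIF2S1 (-0.69) and EIF2AK2, the kinase PKR (-0.61), fell. The calls of EIF2S1 and EIF2AK2 ended without sphere-differentiated replicate 2 or 3, and that of EIF2S1 also without floating sphere replicate 3. DDIT3 shares 39.6% of its exon length with other genes. MCL1, a survival factor of the BCL2 family, rose (1.06). The listed genes BCL2L1 and BCL2 of that family were lower in floating spheres without overlap. BCL2L1 had no call (-0.48, limma adjusted p = 0.0564) and shares 43.0% of its exon length with another gene. BCL2 was too low to test, at 30, 21 and 64 fragments in floating spheres against 93, 68 and 110 fragments in sphere-differentiated cells. HSPA5, the chaperone BiP, had no call, at 363, 204 and 338 FPKM in floating spheres against 433, 411 and 438 FPKM. Between them, this list and the keratinocyte list gave 12 calls among 20 genes, where 33.6% of all tested genes had a call. Both lists were chosen with earlier results of these data known, so these counts are a description only.

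Among 11 neighbours of the cytokine genes on chromosome 1, 7 were tested, 1 was higher and 3 were lower, at fold changes of -0.82 to 0.53. The shares over all tested genes were 15.8% higher and 17.8% lower. FCMR, an IgM receptor gene next to IL24 on the minus strand, fell to 3.07, 3.92 and 4.31 FPKM in floating spheres, against 7.05, 6.44 and 7.01 FPKM in sphere-differentiated cells (log2 fold change -0.79, SE 0.15, adjusted p = 0.00804). MAPKAPK2, a kinase gene on the other side, fell to 26.0, 25.9 and 32.9 FPKM, against 51.8, 42.6 and 48.2 FPKM (-0.74, SE 0.15, adjusted p = 0.0103). RASSF5 fell (-0.82) and the translation factor gene EIF2D rose (0.53). The call of MAPKAPK2 ended without sphere-differentiated replicate 3, and that of EIF2D without floating sphere replicate 2 or 3, without any 1 of the sphere-differentiated replicates, on rescaling to TPM and without a filter. IL10, which lies between MAPKAPK2 and IL19, had no fragment, and PIGR, FCAMR and C1orf116 were too low to test. C1orf116 held 3, 0 and 0 fragments in floating spheres against 7, 6 and 18 in differentiated libraries, without overlap. Around the receptor genes, 7 of 11 neighbours were tested, and 2 fell, SLC35G2 near IL20RB (-0.69, adjusted p = 0.00601) and IFNLR1 next to IL22RA1. NCK1, which lies between SLC35G2 and IL20RB, had no call (-0.33, adjusted p = 0.0885). The 6 calls among these 14 tested neighbours, where 33.6% of all tested genes had one, became 3 without sphere-differentiated replicate 3.

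**Figure D5:**
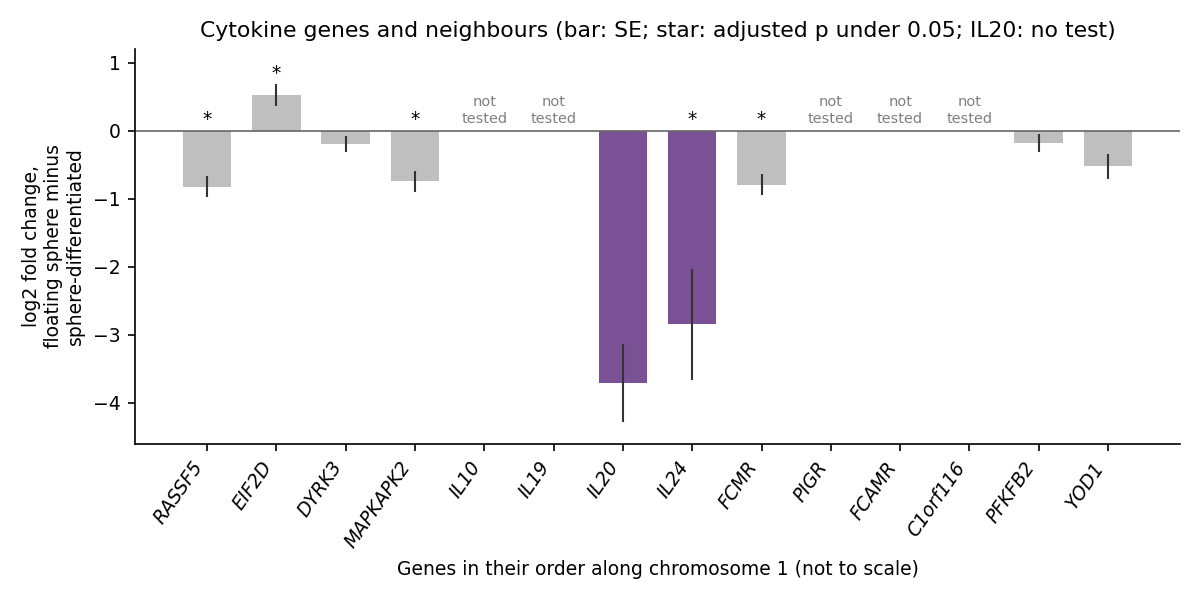
Log2 fold change (floating sphere minus sphere-differentiated, bar for SE) of the cytokine genes (purple) and their neighbours (grey) in their order along chromosome 1, with a star for an adjusted p under 0.05. IL20 at -3.71 and IL24 at -2.84 stand between neighbours at -0.74 (MAPKAPK2) and -0.79 (FCMR).

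Over the 6 libraries, the protein-coding genes whose log2 profile was most like that of IL20, by Pearson correlation among 10931 genes, were ERCC3, MAN2A2, EIF1, GPR1 and FST, the activin-binding protein follistatin gene, at 0.996 to 0.997. FST stood at 0.643, 2.19 and 0.951 FPKM in floating spheres against 7.59, 8.38 and 8.10 FPKM in sphere-differentiated cells. For IL24 they were the E-cadherin gene CDH1, RPL9, the laminin gene LAMB3, TSC22D3 and HCN2, at 0.993 to 0.996. LAMB3 had 45.7, 194 and 83.7 FPKM in floating spheres against 313, 284 and 296 FPKM. IL20 and IL24 correlated with each other at 0.963, which placed IL24 at rank 226 for IL20 and IL20 at rank 71 for IL24. Correlation does not weigh the size of a change. ERCC3, the gene most like IL20, had a log2 fold change of only -0.33 and no call. Its means were 11.2 FPKM in floating spheres and 14.2 FPKM in sphere-differentiated cells. RPL9 (-0.43), HCN2 (-0.67) and TSC22D3 (-1.40) had no call either, and the rest of these genes were called lower. All these correlations rest on 6 points that share the difference between states and describe likeness alone.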

How the data were processed

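The deposited values were FPKM, computed by the authors for each library. Their processing notes, per the labels, name hg38, featureCounts 1.5.0-p3 and DESeq2 1.20.0, and the paper names edgeR for testing. No aligner, annotation release or strand setting is named in these sources. The library kit was NEBNext Ultra RNA. Names, positions and merged exon lengths came from GENCODE 29, and FPKM multiplied by length gave whole fragments (within 0.01) for 100% of values above 0.

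The 15719 genes whose mean reached 0.5 FPKM entered limma 3.58.1 (R 4.3.3) as log2(FPKM + 0.5), with an intensity trend and group as the only term, floating sphere minus sphere-differentiated, with Benjamini-Hochberg adjustment at 0.05. The count model the paper names was not used, since the values are FPKM. The procedure was run on simulated counts that had the same spread between replicates for every gene and in both states. That cannot show how calls hold where floating spheres spread more, as for IL20 and IL24. Intervals for low counts are exact (SciPy 1.17.1). Groups came from sample titles. Members and gene lists were chosen with earlier results of these data known. All members were named, as were called genes of the signal chain, family, receptor and neighbour lists, up to 6 genes with the smallest adjusted p of each other list and 5 genes most like IL20 and IL24. Any other gene was chosen with its values in view. An item of the signal chain list is not reported here. Alternatives changed the pseudocount, filter, scaling, moderation, replicate term or measure (limma voom on recovered fragments), or left out each library.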

Additional observations from a re-analysis of the deposited data

How the results depend on the processing

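Over 16 alternatives, the values of the genes named by rule kept their direction in all fits. The changes of filter, the replicate block and the fit without an intensity trend cannot move a fold change, so they bear on the calls alone. Of the values in all fits, 576 were counted as unchanged, 80 lost a call and 9 gained one. Unchanged means on the same side of the threshold, except for IL19 and IL10RB, which the main fit did not test. Their values without a filter were counted as unchanged by fold change, which removing the filter cannot move, so this says nothing about how stable they are. IL20 ranged between -4.45 and -3.20 on the log2 scale (-4.03 with a pseudocount of 0.1, -4.13 with voom on recovered fragments), and IL24 between -3.90 and -2.06. Without a filter, IL19 had a log2 fold change of -1.36 (limma, adjusted p = 0.0143) and IL10RB one of -0.09 (adjusted p = 0.705). The count of changed genes was 5279, against 3402 with a minimum mean of 5 FPKM and 2766 to 5303 with a library left out, lowest without sphere-differentiated replicate 3 and 3032 without replicate 2. Members with a call numbered 3, and 1 or 2 with a library left out. They were 1 without floating sphere replicate 3 or without any 1 of the sphere-differentiated replicates. The call left in each of those fits was that of IL20, which chose the family and carries no test. Nothing is read from these member counts. Signal chain and feedback genes gave 7 calls, 4 without a filter, and 3 to 8 with a library left out. Locus neighbours gave 6 calls, and 3 to 7 with a library left out. Response genes gave 12 calls, and 8 to 14 with a library left out.

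Libraries of the 2 states share only their replicate numbers, with correlations of -0.0738 to -0.0205 between libraries of the same number. A replicate block left 4088 calls over all genes and 4 among signal chain and feedback genes, and took the calls of IL22RA1 (adjusted p = 0.0806), IFNLR1, EIF2D, BCL3, JUNB, PIAS3, EIF2S1 and EIF2AK2. Depth limits IL19, IL20RA and IL10RB most, at 1 to 63 fragments per library.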

Other observations

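IL20RB-AS1, an antisense gene inside IL20RB, was chosen after its values were seen. It held 3, 16 and 14 fragments in floating spheres against 37, 28 and 17 in sphere-differentiated cells, and its log2 fold change of -1.19 had no call (limma, adjusted p = 0.0661). Only 4.16% of the exon length of IL20RB is shared with other genes, and without strand information reads from the shared part cannot be told apart.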
